A study of Ovis aries with 32 samples.

Results

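The genes described are the cytosolic ribosomal protein genes of sheep (Ovis aries), read in 4 fat depots. Members were taken by symbol: every gene in the count table named RPL or RPS followed by a number, RPSA, or one of the stalk proteins RPLP0, RPLP1 and RPLP2, leaving out the RPS6 kinases. This gave 77 of 28524 genes. Of these, 72 are core members, 41 of the large and 31 of the small ribosomal subunit, and 5 are paralogs (RPL3L, RPL7L1, RPL22L1, RPL26L1 and RPS27L). The core genes RPL23, RPL34, RPL39 and RPL41 were not analysed here. The genes FAU, RPL36AL and RPS26_1, which lie outside the naming rule and encode a ribosomal protein or a near copy, are given beside the members they belong with.

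Ribosomal proteins join ribosomal RNA to form the small subunit, which reads the messenger RNA, and the large subunit, which makes the peptide bond. Their messenger RNAs carry a run of pyrimidines at the 5′ end, through which mTORC1 signalling sets their translation, so that a cell can make the proteins in matched amounts. In fat, as in other tissues, these messengers are abundant in every cell type, and their level is therefore a property of the whole mixture of adipocytes, stromal, vascular and immune cells in a sample.

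Libraries came from 8 adult female sheep, each of which gave visceral fat (mesenteric fat beside the rumen), subcutaneous fat (from beneath the skin over the sternum), perirenal fat (around the kidney) and epicardial fat (on the heart, beneath its serous layer), 32 libraries in all. The 4 controls were sheep 98, 131, 132 and 201. The 4 testosterone sheep were 48, 185, 233 and 255, whose dams were injected intramuscularly 2 times weekly between gestation days 30 and 90 with 100 mg (1.2 mg/kg) of testosterone propionate in 2 ml of corn oil. Each group held only 1 daughter per dam. All 8 sheep, controls included, were ovariectomized at the close of their second breeding season and carried estradiol and progesterone implants, the last of them 4 of estradiol, each 30 mm, placed 18 h before death. All depot differences below are therefore differences in ovariectomized, steroid-replaced females. The method sequences the 3′ end of each messenger, so the reads of a gene do not grow with its length. Levels are therefore compared between genes as CPM (counts scaled to the library's size) with no length correction. In bulk tissue, fewer cells of a type and less RNA per cell cannot be told apart.

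Total counts ran from 784135 (subcutaneous, testosterone sheep 48) to 8267824 (perirenal, control sheep 132), and ADIPOQ, which encodes adiponectin, was at 2419 to 20889 CPM, so this adipocyte marker was present in every library. A set of 5 libraries stood apart from their group. In visceral fat of testosterone sheep 255 and subcutaneous fat of testosterone sheep 48, a list of 14 transcripts rich in the nucleus summed to 55430 and 61799 CPM, of which ARGLU1 made up 18437 and 25675 CPM. A list of heart muscle genes, 18 of 20 in the table, summed to 26390 CPM in epicardial fat of control sheep 98 and 37622 CPM in that of testosterone sheep 48. Epicardial fat of testosterone sheep 255 held the trunk gene HOXC6 at 95.5 CPM, against at most 2.16 CPM in the other epicardial libraries and 75.5 to 111 CPM in visceral fat. Whether this library is epicardial fat is therefore in doubt, and it is given under its label. Without it the member share described below was 6.57% to 8.68% in the epicardial libraries of testosterone sheep. Counts with these 5 libraries left out, a choice made after seeing the data, stand beside the results they touch. Counts with libraries or sheep left out, or from other fits, are given without the share of all genes in the same fit. They show how far a count moves and are not read as particular to the members.

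Ribosomal protein messengers were among the most abundant of the whole table. The members held 28 of the 100 genes with the highest mean level. Averaged over all 32 libraries, 32 members stood at 1000 CPM or more, 38 between 100 and 1000 CPM, 6 between 10 and 100 CPM and 1 below 10 CPM, with a median of 870 CPM. The large-subunit genes RPL37 and RPL37A led with means of 4424 and 4204 CPM. They were followed by RPL27A at 3442 CPM, RPS27A at 3404 CPM and RPL9 at 3144 CPM, and the 10 most abundant members held 36.3% of all counts in members. At the other end were the paralog RPL3L at 4.14 CPM and the paralog RPL7L1 at 24.4 CPM. Among core members the lowest were RPS15A at 37.7 CPM, RPS9 at 39.2 CPM and RPSA at 63.6 CPM, although the ribosome holds each of these proteins as it holds RPL37. A low count may include reads that were given to near-identical gene copies, and how such reads were assigned is not given in the sources used here.

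Perirenal fat had the largest share of its counts in ribosomal protein genes. In control sheep the members took 11.2%, 9.78%, 9.80% and 10.3% of all counts in perirenal fat of sheep 98, 131, 132 and 201. They took 6.93%, 5.27%, 7.37% and 6.47% in subcutaneous fat of the same sheep. The control libraries of these 2 depots did not overlap, and every perirenal value was above every visceral (7.32% to 8.71%) and epicardial one (5.83% to 8.61%) as well. In testosterone sheep 48, 185, 233 and 255 the shares were 10.2%, 8.58%, 11.3% and 9.51% in perirenal and 5.57%, 6.35%, 8.94% and 7.34% in subcutaneous fat. These 2 groups did overlap, since the subcutaneous library of sheep 233 lay above the perirenal library of sheep 185. Within animals the full order of the depots varied. Perirenal fat had the highest share of the 4 depots in 8 of 8 sheep, and subcutaneous fat the lowest in 6 of 8. The exceptions were sheep 98, whose lowest was the epicardial library with heart muscle transcripts (5.83%), and sheep 233, whose lowest was visceral fat (8.16%).

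The perirenal share divided by the subcutaneous share was 1.62, 1.86, 1.33 and 1.59 in control sheep 98, 131, 132 and 201. It was 1.84, 1.35, 1.26 and 1.30 in testosterone sheep 48, 185, 233 and 255, and the 1.84 rests on the subcutaneous library that stood apart. Group means for control and testosterone sheep were 10.3 ± 0.681% and 9.90 ± 1.14% in perirenal, 7.85 ± 0.641% and 7.77 ± 0.295% in visceral, 7.39 ± 1.15% and 7.91 ± 1.14% in epicardial, and 6.51 ± 0.905% and 7.05 ± 1.45% in subcutaneous fat (SD, n = 4 each). Counting error was small beside these spreads: the widest 95% Wilson interval of a library's share spanned 0.101 percentage points. Counts of large-subunit members divided by those of small-subunit members had group means from 1.45 to 1.56.

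**Figure D1:**
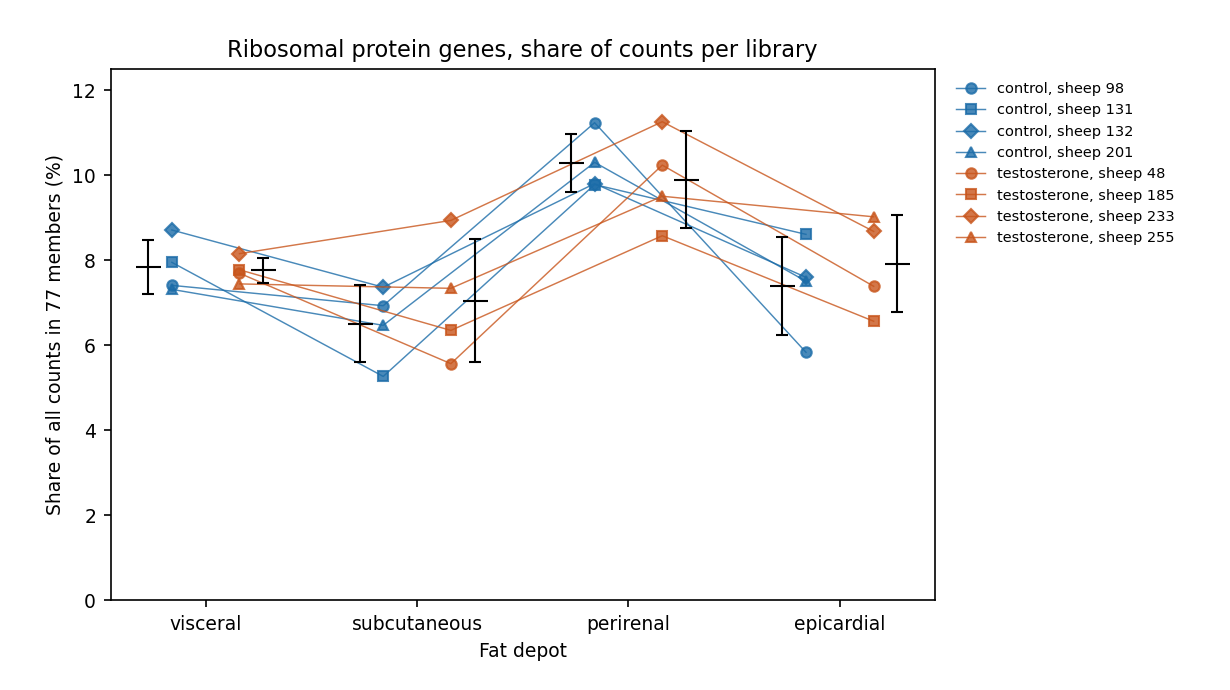
Share of all counts (%, vertical axis) taken by the 77 ribosomal protein genes in each of the 32 libraries, by fat depot, with points for single libraries of control and testosterone sheep lines joining the libraries of a sheep, and black bars for the group mean with its SD (n = 4). Perirenal fat is highest in 8 of 8 sheep, at 8.58% to 11.3%, and subcutaneous fat is lowest in 6 of 8.

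Gene by gene, perirenal fat had the highest mean level for 71 of 76 members tested in control sheep and for 69 of 77 in testosterone sheep. Over all genes tested these shares were 24.2% and 31.7%. Subcutaneous fat had the lowest mean for 57 members in control sheep, against 28.9% of all genes, and epicardial fat for 15, against 29.6%. In testosterone sheep subcutaneous fat was lowest for 42 of 77 members, epicardial fat for 18 and visceral fat for 14. Over all genes these shares were 26.8%, 31.5% and 15.6%. The paralogs RPL22L1, RPL26L1 and RPL7L1 and the stalk protein RPLP2 were highest outside perirenal fat in both sets of animals. So was RPL3L, whose level in control sheep was too low for the test and is not among the 76. RPL29 was highest elsewhere in control sheep only, and RPL4, RPS27L and RPS3A in testosterone sheep only.

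**Figure D2:**
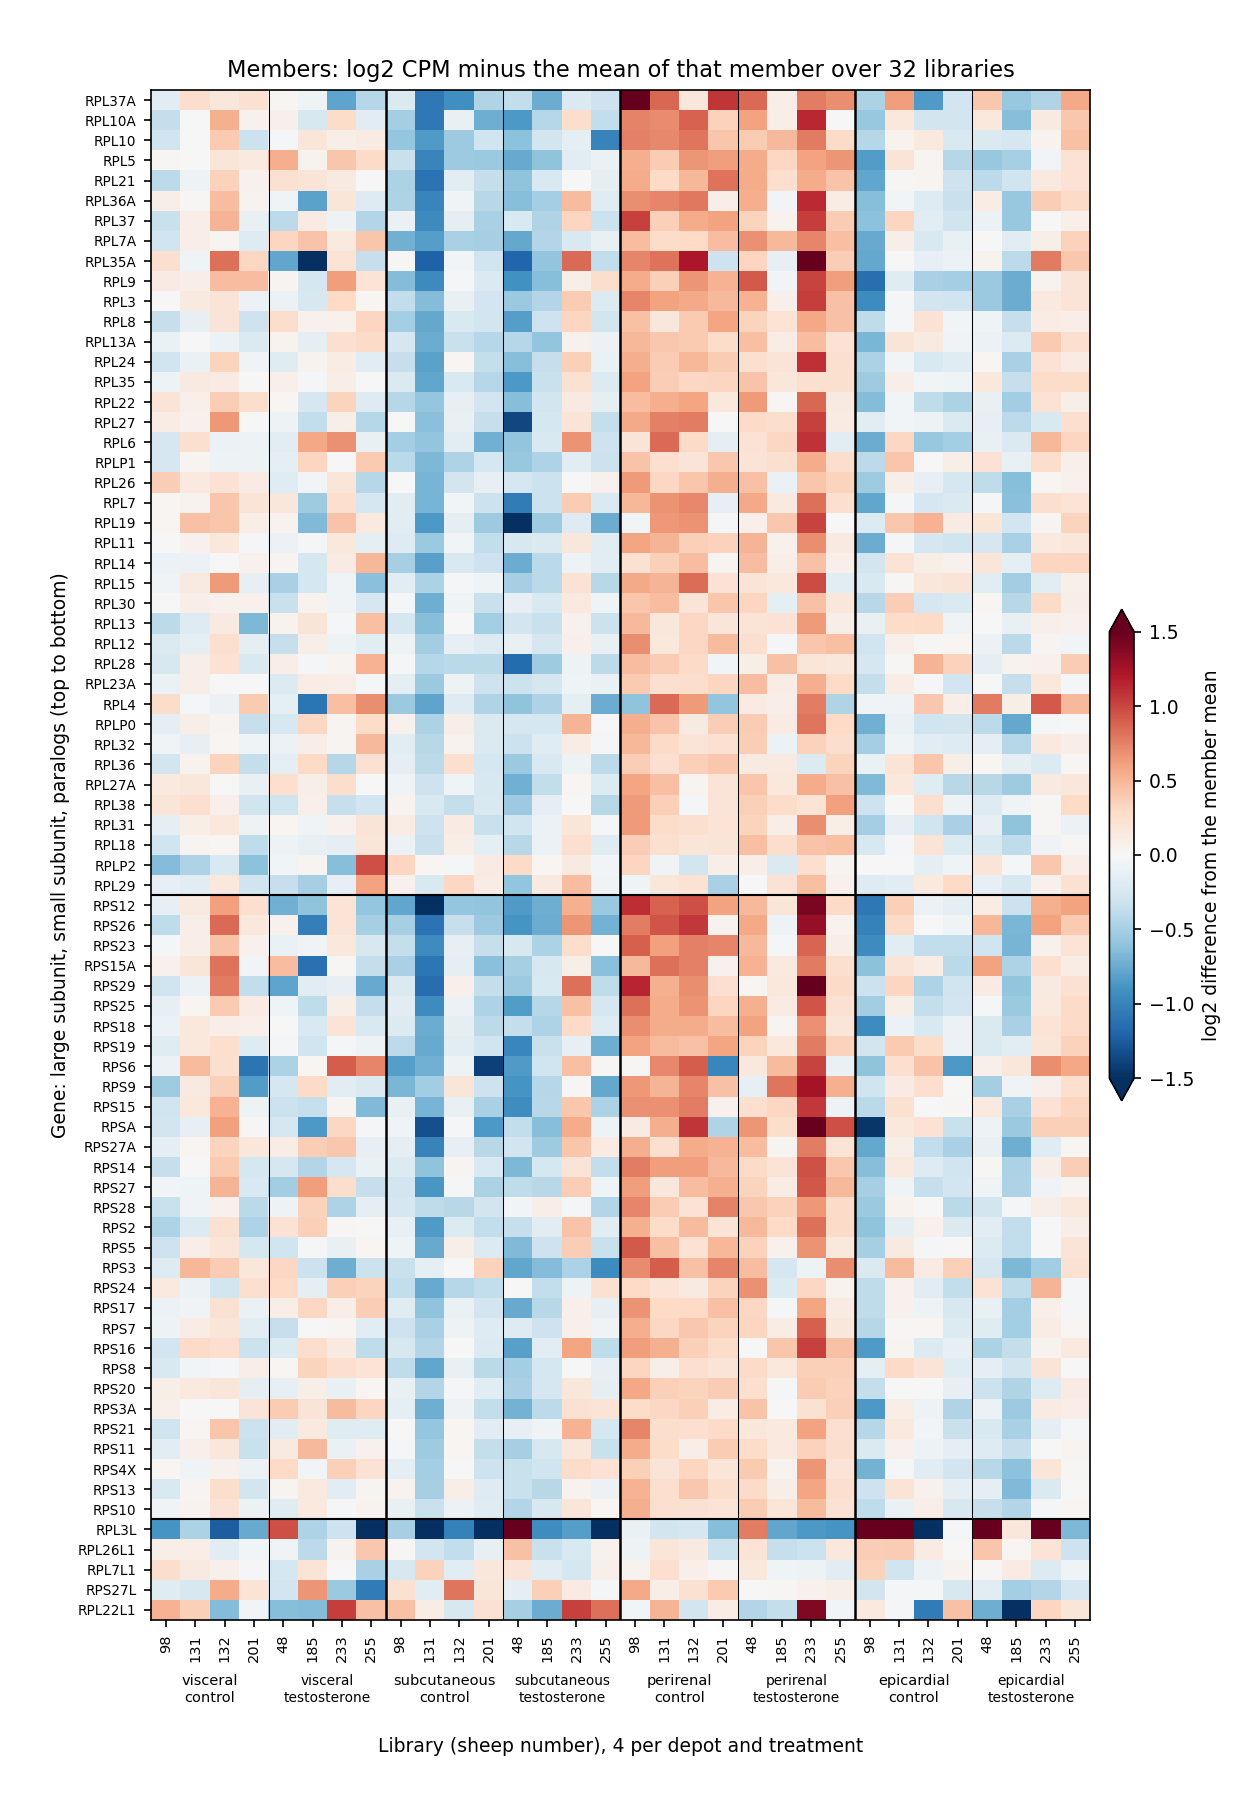
Log2 CPM of members (rows, grouped into large subunit, small subunit and paralogs) minus that member's mean over the 32 libraries, by library (columns, sheep numbers under each depot and treatment), from blue (lower) to red (higher). Perirenal control columns are red in most core rows, the perirenal column of testosterone sheep 185 is paler (58 of 77 members above their mean), subcutaneous control columns are mostly blue, and the paralog rows at the bottom do not follow.

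The first comparison asked how ribosomal protein genes differ between perirenal and subcutaneous fat within control sheep. Of 76 members tested by edgeR, 63 were higher in perirenal fat and none was lower at a false discovery rate (FDR) under 0.05. That is 82.9% of the members, where 23.6% of all 13369 genes passed in either direction and 12.2% were higher in perirenal fat. The median log2 difference over the members was 0.72, with a range of -0.11 to 1.72, against -0.01 over all genes, and 73 of 76 members were on the positive side. In 67 members the perirenal library was above the subcutaneous one in 4 of 4 sheep (22.4% of all genes), and in 61 the 2 groups did not overlap (21.7% of all genes, in either direction). The difference had about the same size at every level of abundance: its median was 0.74, 0.71 and 0.77 in the lowest, middle and highest tertile of members by mean level, with 19 of 26, 22 of 25 and 22 of 25 members passing. Leaving out sheep 131, whose subcutaneous share was the lowest, left 46 members passing, all of them among the 63, and the count was 50 to 56 without any other sheep.

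These values are relative to the rest of each library. When library sizes were set to the members' own total, an alternative added after seeing the data, 6 members were higher and 9 lower in perirenal fat, and the median over all genes moved to -0.79.

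The small subunit was the more uniform: 30 of 31 core members were higher in perirenal fat, against 33 of 41 of the large subunit, a difference between subunits that was not tested. RPS12, a protein of the small subunit's beak, had the largest difference. It was at 1019, 873, 926 and 720 CPM in perirenal fat of sheep 98, 131, 132 and 201 and at 275, 162, 315 and 314 CPM in subcutaneous fat. The lowest perirenal library was thus far above the highest subcutaneous one, and the log2 difference was 1.72 (SE 0.26, FDR = 0.000422). RPS26, which lies where messenger RNA leaves the small subunit, averaged 1037 CPM in perirenal and 406 CPM in subcutaneous fat, a log2 difference of 1.31 (SE 0.25, FDR = 0.00231). A second entry, RPS26_1, averaged 727 and 537 CPM and did not pass (0.42, FDR = 0.0647), and reads of these near copies may be split between them. RPS23, a protein of the decoding centre, stood at 3709, 3062, 3358 and 3301 CPM in perirenal fat and at 1556, 1032, 1835 and 1569 CPM in subcutaneous fat. Its perirenal libraries lay close together and well above the subcutaneous ones (1.16, SE 0.18, FDR = 0.00041).

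RPS6, the substrate of the S6 kinases downstream of mTORC1, was higher in perirenal fat within 4 of 4 control sheep, yet its groups overlapped. It was at 274, 445, 507 and 136 CPM in perirenal and 152, 164, 255 and 102 CPM in subcutaneous fat of sheep 98, 131, 132 and 201. Sheep 201 was low in both depots, and with the sheep as a block the log2 difference was 0.90 (SE 0.16, FDR = 0.00109). RPS4X, the X-linked small-subunit gene, showed one of the smaller differences that passed (0.48, SE 0.15, FDR = 0.0288), with means of 1305 and 926 CPM. RPSA, a small-subunit protein also known as a laminin receptor, was the 1 small-subunit core member that did not pass. It was higher in perirenal fat of 4 of 4 sheep, at 62.8, 84.5, 122 and 42.0 CPM against 55.6, 22.8, 57.1 and 31.5 CPM, but the sheep differed widely in the size of the gap (0.81, SE 0.32, FDR = 0.0786).

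In the large subunit, RPL37A led. Its perirenal levels were 11301, 6923, 4274 and 7979 CPM in sheep 98, 131, 132 and 201, and its subcutaneous levels were 3282, 1811, 2014 and 2782 CPM. No library overlapped although sheep 98 stood far above the rest in perirenal fat, and the log2 difference was 1.56 (SE 0.28, FDR = 0.00143). RPL10A averaged 582 CPM in perirenal and 245 CPM in subcutaneous fat (1.238, SE 0.19, FDR = 0.000332). RPL10, which joins the large subunit in the last steps of its assembly in the cytoplasm, gave the smallest FDR of all members. It was at 291, 285, 301 and 231 CPM in perirenal and at 115, 95.6, 118 and 140 CPM in subcutaneous fat, with little spread in either depot (1.21, SE 0.16, FDR = 9.81e-05). RPL3, which reaches toward the peptidyl transferase centre, averaged 755 and 393 CPM (0.93, FDR = 0.000993).

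Both proteins of the 5S particle, which carries 5S ribosomal RNA into the large subunit and can bind the p53 regulator MDM2, were higher in perirenal fat. RPL5 averaged 2390 CPM there and 1082 CPM in subcutaneous fat (1.12, SE 0.19, FDR = 0.000788). RPL11 averaged 1230 and 740 CPM (0.72, SE 0.16, FDR = 0.00395). The stalk, a flexible arm that recruits translation factors, was divided. RPLP1 averaged 2716 CPM in perirenal and 1601 CPM in subcutaneous fat and passed (0.74, FDR = 0.00348). RPLP0, which anchors the stalk, averaged 1059 and 751 CPM and missed the threshold (0.48, FDR = 0.0515), while RPLP2, the binding partner of RPLP1, had a log2 difference of -0.10 (FDR = 0.665) at 1684 and 1776 CPM.

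Some ribosomal proteins are made as fusions with ubiquitin or a ubiquitin-like protein, and both such genes described here were higher in perirenal fat. RPS27A averaged 4535 CPM in perirenal and 2514 CPM in subcutaneous fat (0.84, FDR = 0.00728). FAU, which encodes RPS30 and lies outside the naming rule, averaged 2188 and 1307 CPM (0.74, FDR = 0.0144).

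The paralogs differed from the core genes they resemble. None of the 4 paralog members tested passed: RPL22L1 had a log2 difference of -0.07 (FDR = 0.83), RPL7L1 0.04 (FDR = 0.893), RPS27L 0.05 (FDR = 0.872) and RPL26L1 0.15 (FDR = 0.431). The core partners RPL22 (0.77), RPL7 (0.73), RPS27 (0.84) and RPL26 (0.72) all passed, and the whole list of such partners passed in 7 of 7. The difference between a paralog and its partner was not itself tested. RPL36AL, a near copy of RPL36A outside the naming rule, did pass (0.71, FDR = 0.00675), as did RPL36A (1.03). RPL7L1 had the lowest SD of log2 CPM of any member over the 32 libraries (0.20), with levels from 17.1 to 30.8 CPM. Its perirenal control libraries at 25.1, 28.9, 25.4 and 24.4 CPM lay inside the range of the subcutaneous ones, 20.4 to 30.8 CPM.

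Of the 72 core members, 9 did not pass. Among them were RPLP0, RPLP2 and RPSA, described above, with RPL29 (-0.11), RPL18 (0.34), RPL31 (0.42), RPL27A (0.47) and RPL4 (0.64). RPL29 was at 251, 296, 304 and 188 CPM in perirenal and 274, 225, 326 and 283 CPM in subcutaneous fat of sheep 98, 131, 132 and 201, with full overlap. RPL4 split by animal: it was at 293 and 251 CPM in perirenal fat of sheep 131 and 132 but at 106 and 107 CPM in sheep 98 and 201, which overlapped the subcutaneous range of 93.4 to 141 CPM.

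Other genes of the translation machinery passed less often than the members, a difference that was not tested. Of 22 translation factors, 11 were higher in perirenal than in subcutaneous fat of control sheep and none was lower (median 0.48). Of 70 mitochondrial ribosomal protein genes tested, 19 were higher and 1 lower (median 0.26), with MRPL45 at 0.91, MRPL34 at 0.86 and MRPL41 at -1.63. Of 28 genes of ribosome biogenesis, which build the subunits in the nucleolus, 1 was higher and 3 were lower (median -0.19). Among 13 regulators of mTORC1 and pyrimidine-tract messengers tested, 1 was higher and 4 were lower (median -0.07), with MYC, a transcriptional activator of ribosome synthesis, at -1.23 (FDR = 0.048), the mTORC1 inhibitor AKT1S1 at -0.77 and its activator RHEB at -0.75.

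Markers of RNA fraction and of other cells differed between the same libraries. Of 14 transcripts rich in the nucleus, 10 were lower in perirenal fat and none was higher (median -0.70), and their sum was 4359 to 5696 CPM in perirenal and 6323 to 9680 CPM in subcutaneous control libraries. T and natural killer cell genes summed to 48.7 to 92.6 CPM in perirenal and 13.2 to 28.4 CPM in subcutaneous fat, and 7 of 8 tested were higher. The mesothelial genes WT1, KRT19 and ALDH1A2 were higher in 3 of 3 tested, with sums of 104 to 180 CPM and 9.37 to 35.3 CPM, and 2 of 7 macrophage genes were higher. Adipocyte genes overlapped, with sums of 29745 to 45505 and 28997 to 41492 CPM, 1 of 12 higher and 4 lower. The part of these differences in the ribosomal protein result was not tested.

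**Figure D3:**
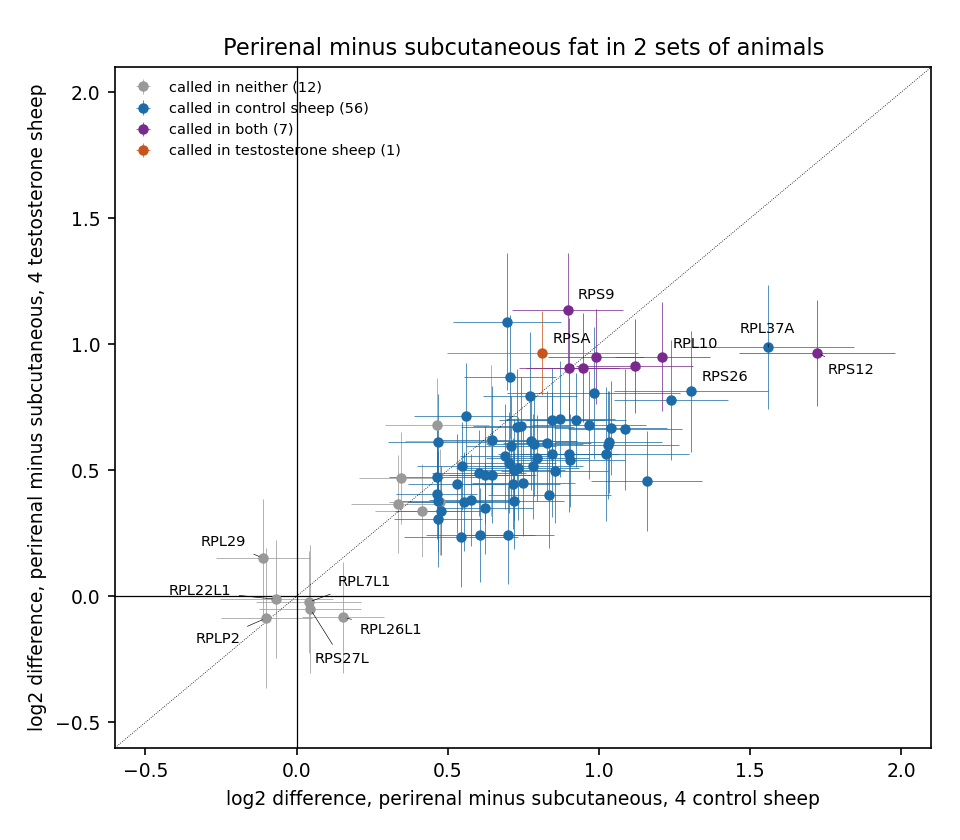
Log2 difference perirenal minus subcutaneous fat for each of the 76 members tested in both sets of animals, in 4 control sheep (horizontal axis) and 4 testosterone sheep (vertical axis), coloured by the set in which the member passed the test. Of these, 72 have the same sign in both sets, 7 passed in both, and the paralogs, RPLP2 and RPL29 lie near 0.

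The same comparison was made in testosterone sheep, a separate set of 4 animals. Here 8 of 77 members (10.4%) were higher in perirenal fat and none was lower, where 2.23% of 13411 genes passed and 1.3% were higher. The median difference was 0.55, against 0.02 over all genes, and 72 of 77 members were positive, 66 of them in 4 of 4 sheep (19.9% of all genes). In 22 members the groups did not overlap (12.7% of all genes, in either direction), and 54 members had an unadjusted p under 0.05 against 19.8% of all genes. The members that passed were RPL10, RPL5, RPL7A, RPL9, RPS12, RPS19, RPS9 and RPSA, and 7 of these had passed in control sheep too. All 63 members that passed in control sheep were positive here. The count depended on single animals: it was 0 without sheep 185, 0 without sheep 233, 1 without sheep 48 and 7 without sheep 255, and DESeq2 called 36. The share of all genes that DESeq2 called is not given here, so the 36 are not read as stronger support. Without the libraries that stood apart 10 members passed, with a median of 0.43.

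RPS9, a small-subunit protein near the messenger RNA entry channel, had the largest difference in testosterone sheep. It was at 33.7, 64.3, 88.2 and 53.6 CPM in perirenal and 19.7, 27.3, 37.2 and 21.5 CPM in subcutaneous fat of sheep 48, 185, 233 and 255. Each sheep's perirenal library was the higher, although the lowest perirenal library lay below the highest subcutaneous one (1.14, SE 0.22, FDR = 0.0173). RPSA was at 91.1, 69.6, 168 and 113 CPM in perirenal and 44.7, 36.9, 84.8 and 54.7 CPM in subcutaneous fat. Every perirenal library was above that animal's subcutaneous one, with sheep 233 high in both depots (0.97, SE 0.17, FDR = 0.00841). RPS12 averaged 759 and 388 CPM (0.97, FDR = 0.0258), a smaller gap than in control sheep, and RPL10 averaged 244 and 124 CPM (0.95, FDR = 0.033). In 62 of the 76 members tested in both sets the difference was larger in control sheep. Whether the depot difference itself depends on treatment is addressed by the interaction test below, in which no member passed.

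Perirenal fat was also above epicardial fat. In control sheep 48 of 76 members (63.2%) were higher in perirenal fat and none was lower, against 25.2% of all genes, of which 12.4% were higher in perirenal fat. The median was 0.55 (-0.03 over all genes), 58 members were higher in 4 of 4 sheep (20.1% of all genes) and in 47 the groups did not overlap (21.8%). RPS23 had the largest difference, at 3358 against 1477 CPM on average (1.17, SE 0.18, FDR = 0.000304). Its epicardial libraries were at 1037, 1787, 1541 and 1542 CPM, all below the lowest perirenal one. RPL37A (1.11, FDR = 0.0101), RPS12 (1.06, FDR = 0.00784) and RPL9 (1.05, FDR = 0.000882, 4225 against 2017 CPM) followed. Sheep 98, with heart muscle transcripts in its epicardial library, carried part of the count: without that sheep 17 members passed and RPL37A did not. The count was 27 without sheep 201, and 28 with a median of 0.43 without that epicardial library alone. With library sizes set to the members' total, 4 members were higher and 11 lower.

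Translation factors again moved the same way, with 13 of 22 higher and none lower (median 0.52), led by EEF1B2, an exchange factor of elongation (1.12), TPT1 (0.86) and the nucleolar chaperone NPM1 (0.80). Of 14 nuclear transcripts 11 were lower in perirenal than in epicardial fat, among them ARGLU1, LUC7L and NKTR at -0.995, -0.96 and -0.95. Heart muscle genes were lower in perirenal fat in 5 of 5 tested, and 7 of 11 fibroblast genes were lower with none higher. The part of these in the member result was not tested. In testosterone sheep the perirenal minus epicardial comparison called 2 of 77 members (2.6%), against 1.82% of all genes. These were RPSA, higher in perirenal fat (0.80, FDR = 0.0258), and RPL3L, lower. The median was 0.40 and 72 members were positive. Without the libraries that stood apart, 20 members were higher and 1 was lower, and without sheep 255, whose epicardial library held HOXC6, the count was 8. It was 0 without sheep 48, 185 or 233.

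The difference between perirenal and visceral fat was smaller and mostly below the threshold. In control sheep 74 of 76 members were positive with a median of 0.41, 53 were higher in 4 of 4 sheep (10.6% of all genes) and 28 did not overlap (5.03%). A single member passed, against 0.613% of all genes: RPL10, at 277 against 169 CPM (0.73, SE 0.16, FDR = 0.0386). It no longer passed without sheep 98, 131 or 201, and 48 members had an unadjusted p under 0.05, against 12.7% of all genes. DESeq2 called 10. In testosterone sheep 72 of 77 members were positive with a median of 0.36, and RPSA alone passed (1.05, FDR = 0.0246), against 0.082% of all genes. Without sheep 48, 185 or 233 it did not pass, while 4 members passed without the libraries that stood apart.

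Among the other 3 depots the share of members that passed was near or below that of all genes. For visceral minus subcutaneous fat in control sheep 11 members were higher and 1 lower (15.8%), a share near the 14% of all genes. RPS12 (1.03, FDR = 0.0148), RPS15A (0.80, FDR = 0.00979), RPL9 (0.71) and RPL5 (0.65) were the largest among those higher in every sheep, and the median was 0.31. The member that was lower was RPLP2, at 1045, 1193, 1401 and 1075 CPM in visceral and 2046, 1669, 1609 and 1781 CPM in subcutaneous fat. Its groups did not overlap (-0.60, FDR = 0.0142), against the direction of RPLP1, its partner in the stalk. The count was 3, 2 and 3 without sheep 131, 132 or 201, and RPLP2 did not pass without sheep 98, 131 or 201. Counting members that did not pass too, 70 of 76 were positive (49.2% of all genes), and 10 changed sign without sheep 131. In 44 members visceral fat was higher in 4 of 4 sheep (21.0% of all genes). The groups did not overlap in 25 (16.4% of all genes, in either direction), and 33 had an unadjusted p under 0.05 (29.6% of all genes). In testosterone sheep none passed (0.664% of all genes). The lowest FDR was 0.1, for RPL5 (0.73), followed by 0.118 for RPL7A (0.70). An unadjusted p under 0.05 was reached by 11 of 77 members, against 11.1% of all genes, and DESeq2 called 4.

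For visceral minus epicardial fat, 4 members passed in control sheep (5.26%, against 21.9% of all genes), RPL9 (0.81), RPL22 (0.57) and RPS23 (0.56) higher and RPLP2 lower (-0.46, FDR = 0.0387). Without sheep 98, 132 or 201 the count was 1 or 2. In testosterone sheep RPL3L alone passed (1.66% of all genes). For epicardial minus subcutaneous fat, 10 members were higher in control sheep (13.2%, against 23.1% of all genes), among them RPS6 (0.56), RPLP1 (0.49), RPL14 (0.48) and RPS19 (0.48). The paralog RPL26L1 was another (0.41, FDR = 0.0366). RPS6, RPLP1, RPL14 and RPS19 were each higher in 4 of 4 sheep, but their groups overlapped. Of all 76 members tested, 13 were higher in 4 of 4 sheep (20.0% of all genes). In 1 the groups did not overlap (20.2% of all genes, in either direction). The count of members passing was 0 without sheep 131 or 132 and 2 without sheep 201. In testosterone sheep RPL3L alone passed, where 4.5% of all genes did.

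RPL3L, the striated muscle paralog of RPL3, was the member with the most uneven pattern. It was at 54.9, 7.45, 0 and 0.821 CPM in epicardial fat of control sheep 98, 131, 132 and 201 and at 42.7, 0.984, 10.7 and 0.38 CPM in that of testosterone sheep 48, 185, 233 and 255. These are 170, 40, 0, 4, 75, 5, 23 and 2 counts, and the count of 0 allows up to 0.518 CPM. The other depots held 0 to 10 counts per library. Heart muscle genes summed to 26390, 4782, 26.1 and 918 CPM in the same control libraries and to 37622, 546, 6667 and 24.9 CPM in the testosterone ones, against 4.11 to 148 CPM in other depots. The 4 epicardial libraries with most RPL3L were thus the 4 with most heart muscle transcripts, and the 2 with least RPL3L had the least. In testosterone sheep it was higher in epicardial than in perirenal fat (-3.70 for perirenal minus epicardial, SE 0.72, FDR = 0.0208), with visceral minus epicardial at -3.48 (FDR = 0.0214) and epicardial minus subcutaneous at 3.71 (FDR = 0.013). In sheep 255 the epicardial level was close to the perirenal one (0.38 and 0.277 CPM), and without sheep 185 the first and second of these no longer passed (FDR = 0.0587 and 0.0645). All 3 passed without the libraries that stood apart (-3.49, -3.01 and 4.36). RPL3L was too low to be tested without sheep 48 or 233, or in control sheep. Its entry into the test thus rested on sheep 48 and 233, whose epicardial libraries held the most of it. The 3 FDRs carry that selection. Its core relative RPL3 averaged 390 CPM in control and 438 CPM in testosterone epicardial fat.

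**Figure D4:**
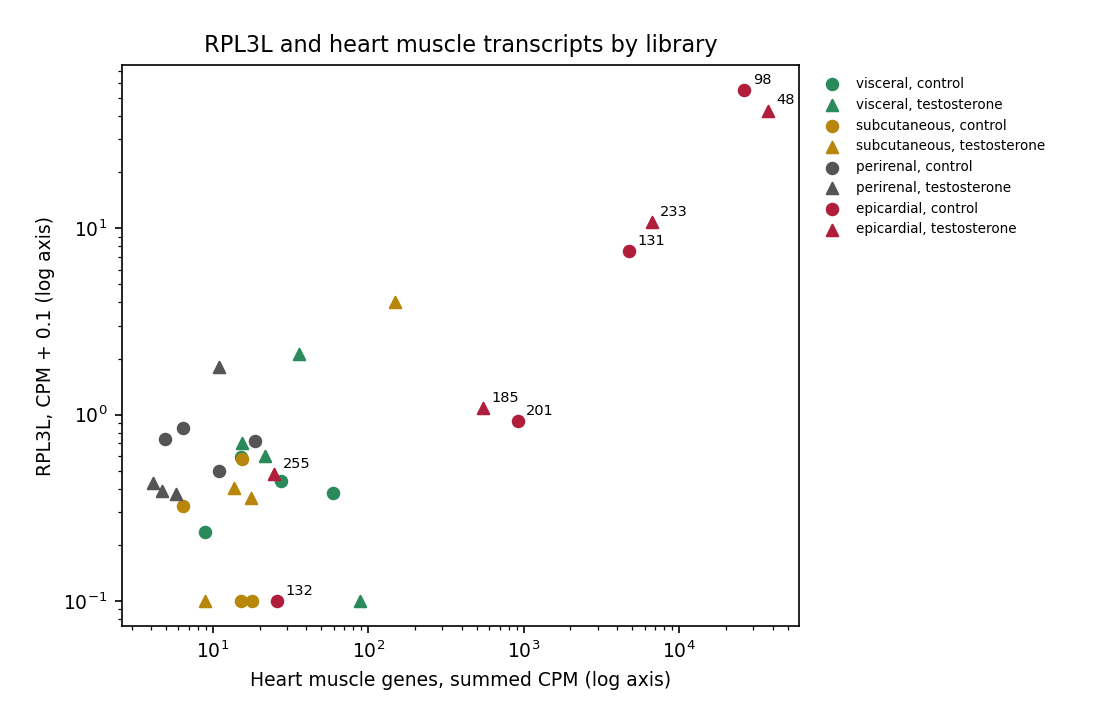
RPL3L level (CPM plus 0.1, log axis) against the summed CPM of heart muscle genes (log axis) in each of the 32 libraries, coloured by depot, with the 8 epicardial libraries marked by sheep number. Epicardial libraries run from sheep 132 and 255 at the lower left to sheep 98 and 48 at 54.9 and 42.7 CPM at the upper right.

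Some members also differed between animals across depots. A joint test of the sheep terms, added after seeing the data, called 2 of 76 members among control sheep (2.63%), where 7.9% of all genes passed, and 6 of 77 among testosterone sheep (7.79%), where 1.98% did. In control sheep RPS6 (FDR = 6.09e-05) was lowest in all 4 depots of sheep 201, at 126, 102, 136 and 148 CPM in visceral, subcutaneous, perirenal and epicardial fat. Sheep 132 had 319, 255, 507 and 362 CPM in the same order, so that the 2 animals did not overlap. The other was RPL22L1 (FDR = 0.0252), lowest in all 4 depots of sheep 132, at 47.1, 62.9, 61.2 and 35.7 CPM. Without sheep 132, 1 member passed.

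In testosterone sheep RPL22L1 had the lowest FDR of the sheep terms (0.00141), followed by RPSA (0.00856), RPL3L (0.00998), RPL35A (0.0129), RPS26 (0.0319) and RPS12 (0.0341). RPL3L entered this test too only through the epicardial libraries of sheep 48 and 233. Its FDR here carries that selection and is not read as a difference between animals across depots. RPL22L1 was at 152, 152, 196 and 93.2 CPM in visceral, subcutaneous, perirenal and epicardial fat of sheep 233, highest of the 4 animals in each depot. In sheep 185 it was at 47.4, 44.3, 57.7 and 23.6 CPM. RPL35A, a large-subunit protein, stood at 239, 374, 644 and 355 CPM in sheep 233 and at 49.0, 137, 190 and 158 CPM in sheep 185. Sheep 233 was highest in all 4 depots for 12 of 77 members, among them RPS26, RPSA, RPS6 and RPL36A. The share over all genes was not computed, so this count is not read as particular to the members. Without sheep 233 none of the members passed, 1 passed without sheep 185, 4 without sheep 48 and 10 without sheep 255. Without the libraries that stood apart 16 did.

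**Figure D5:**
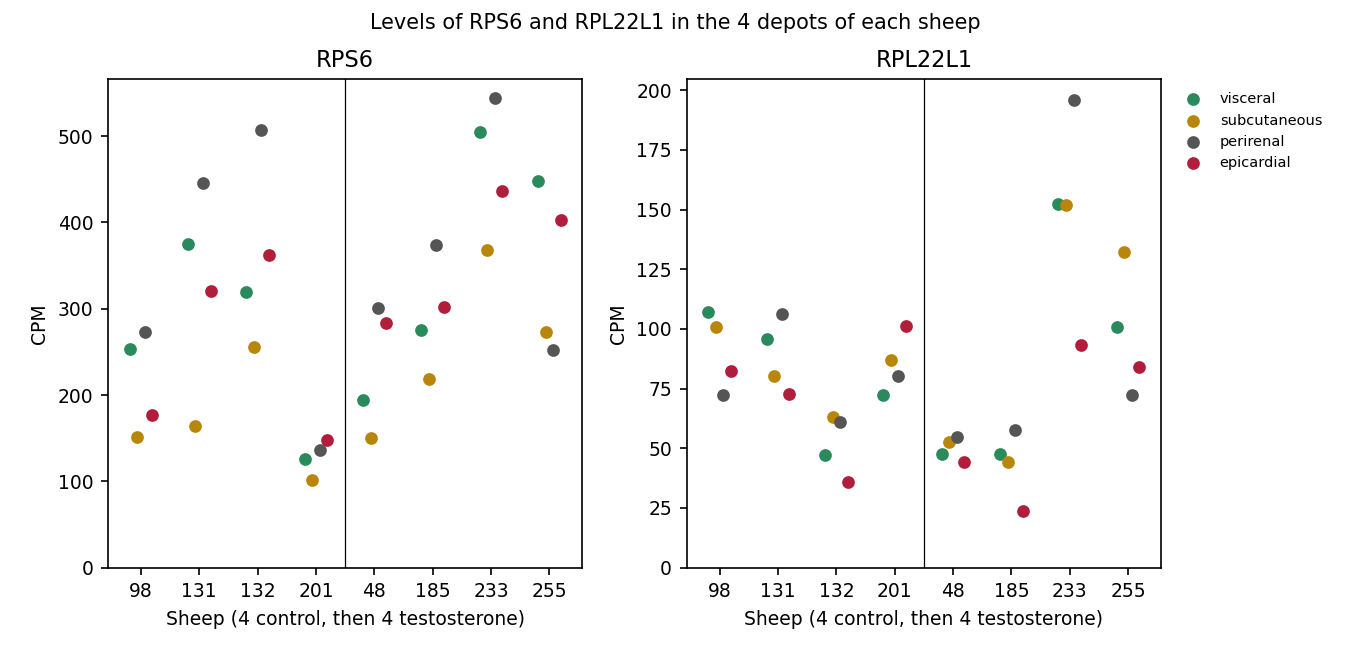
Level (CPM) of RPS6 and RPL22L1 in visceral, subcutaneous, perirenal and epicardial fat of each sheep, 4 control sheep then 4 testosterone sheep, 1 point per library. RPS6 is low in all depots of sheep 201 (102 to 148 CPM), and RPL22L1 is high in sheep 233 (93.2 to 196 CPM) and low in sheep 48 and 185.

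The last question was whether prenatal testosterone changed the members within a depot. In edgeR's test of 4 testosterone against 4 control sheep, no member passed in any depot, and neither did any other gene: visceral fat had 0 of 12860 genes called, subcutaneous fat 0 of 12166, perirenal fat 0 of 12872 and epicardial fat 0 of 12793. DESeq2 called 0 members in each depot. At an unadjusted p under 0.05 visceral and subcutaneous fat had 2 members each, perirenal fat 0 and epicardial fat 1, where 9.42%, 5.11%, 5.37% and 5.65% of all genes reached it. In visceral fat 38 of 76 members were positive (median 0.01), and in perirenal fat 27 of 76 (median -0.05). More were positive in subcutaneous (62 of 76, median 0.17) and epicardial fat (56 of 77, median 0.15). These signs rested on single libraries. In subcutaneous fat 21 members changed sign without sheep 233 (median 0.02), and the median was 0.07 without sheep 131. In epicardial fat 25 changed sign without the libraries that stood apart (median -0.01), and the median was 0.06, 0.09 and 0.10 without sheep 98, 233 or 255. In perirenal fat 17 and 21 changed sign without sheep 185 or 233 (medians 0.03 and -0.17), and in visceral fat the median was -0.06 without the library of sheep 255. Members share libraries and vary together, so these counts carry no test.

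The members with the smallest p in each depot were as follows. In subcutaneous fat RPS3, a small-subunit protein at the messenger entry channel, was at 208, 227, 256 and 185 CPM in testosterone sheep 48, 185, 233 and 255 and at 283, 326, 358 and 455 CPM in control sheep 98, 131, 132 and 201. The groups did not overlap, and the log2 difference was -0.67 (SE 0.20, unadjusted p = 0.00646), which did not pass over all genes (FDR = 0.927). RPS24 was next (0.46, FDR = 0.927). In visceral fat RPS12 averaged 365 CPM in testosterone and 560 CPM in control sheep (-0.59, FDR = 0.521). RPL7A, a large-subunit protein, was at 980, 1055, 871 and 1049 CPM in visceral fat of testosterone sheep and 639, 842, 806 and 687 CPM in control sheep, again without overlap (0.44, FDR = 0.521). In perirenal fat the smallest p belonged to RPS27L (-0.29, FDR = 0.948) and RPS3 (-0.45, FDR = 0.948), and in epicardial fat to RPL4 (0.53, FDR = 0.834) and RPL35A (0.53, FDR = 0.863).

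With each sheep's 4 depots added together, edgeR called 1 of 15301 genes (0.00654%), which was no member. RPL7A had the smallest p of the members (0.32, SE 0.10, unadjusted p = 0.00785, FDR = 0.652), and DESeq2 called it alone (adjusted p = 0.0454). RPS3 was next (-0.42, FDR = 0.718). Of 77 members 48 were positive, with a median of 0.04, and 2 had an unadjusted p under 0.05, where 6.8% of all genes did. The joint test of the depot by testosterone interaction over all 32 libraries called 1 of 14225 genes (0.00703%) and no member, and the lowest FDR of a member was 0.994. At an unadjusted p under 0.05 there were 5 members, where 4.61% of all genes reached it, and DESeq2 called none. With 4 sheep per group these tests do not show that testosterone left the members as they were.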

How the data were processed

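Total RNA of integrity number 7.0 or more went into the 3′ end libraries, per the labels' protocols. The deposited table holds the authors' raw read counts per gene, not normalized. Per the submitters' processing notes, the tools were STAR, featureCounts 1.6.1, Trimmomatic 0.36, DESeq2 1.24.0, R 3.6.3, FastQC 0.11.5 and MultiQC 0.9, whose roles and order the notes do not state. The genome build, annotation and strand setting are not given in these sources, so near-identical, overlapping or antisense genes may hold each other's reads. No sequences are printed, and some genes are not reported here.

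CPM on TMM-scaled library sizes and all differences come from edgeR 4.0.16 (R 4.3.3). The test was the quasi-likelihood test with robust fits, filterByExpr at a minimum count of 10 and Benjamini-Hochberg adjustment over all genes tested (FDR under 0.05). The standard error (SE) is the absolute log2 difference over the square root of F. Depots were compared with the sheep as a block, since each sheep gave all 4 depots, separately in the 16 libraries of control and the 16 of testosterone sheep, so comparisons within a set share libraries. As a check of the pairing, deviations of libraries from their group means were correlated between depots: 41 of 48 correlations within a sheep were over 0.1, with a mean of 0.248. Testosterone effects were fitted within the 8 libraries of each depot. In 48 pairs of replicates none held identical values, and chi-square per degree of freedom was never below 11.3. The tests were first tested on simulated data with known changes.

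The members and gene lists were chosen with earlier results of these data known. Named are up to 4 members higher and 4 lower in each comparison that moved the same way in every sheep, or the 2 with the smallest p where none passed, the stalk, 5S particle, ubiquitin fusion and paralog genes with their core partners, RPSA, RPS6, RPS4X, RPL10 and RPS23, members with a sample far from its group, and up to 3 genes of each other list. RPS9, RPL4, RPL29, RPS15A and the other core members given as not passing were named after their values were seen. Alternatives were DESeq2 1.42.0, its size factors, library sizes without the members, no filter, no block and leaving out each sheep. Intervals and the limit of a count of 0 (3 counts) cover only counting error, because the reads carry no molecular identifiers and so are not independent molecules.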

Additional observations from a re-analysis of the deposited data

Results flagged for a closer look

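Among 216 groups of 4 libraries looked at, 11 held a library whose gap to its nearest neighbour took up more of the group's range than Dixon's critical value for 4 values allows. Chance alone gives about 1 in 20.

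Testosterone sheep 233 accounts for 7 of the 11. RPS12 stood at 543 CPM in its visceral fat (287 to 317 CPM in the other 3 sheep), 684 CPM in subcutaneous fat (263 to 320 CPM) and 1260 CPM in perirenal fat (538 to 660 CPM). RPS26 was at 972 CPM in its subcutaneous fat (332 to 376 CPM). In its perirenal fat RPLP1 was at 3210 CPM (2490 to 2610 CPM), RPL22L1 at 196 CPM (54.8 to 72.2 CPM) and RPL35A at 644 CPM (190 to 268 CPM). Its libraries also had the highest member share of the testosterone sheep in visceral, subcutaneous and perirenal fat.

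RPL3L accounts for 3 more. It was at 54.9 CPM in epicardial fat of control sheep 98 (0 to 7.45 CPM in the others), and testosterone sheep 48 had 3.94 CPM in subcutaneous fat (0 to 0.305 CPM) and 1.7 CPM in perirenal fat (0.277 to 0.329 CPM). The last is RPS27A in perirenal fat of control sheep 131, which was low at 3870 CPM where the other 3 sheep held 4710 to 4800 CPM.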

How the results depend on the processing

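The values below are counts of members passing. They are given without the share of all genes passing in the same fit, so a larger count is not read as a stronger result. Over the members picked by size or smallest p in each comparison and the alternatives run, no difference that passed reversed its direction. Of these values 385 kept their side of the threshold, 72 no longer passed and 3 passed only then. Other members were not followed singly. DESeq2 called 10 and 4 members for perirenal minus visceral fat in control and testosterone sheep, 19 and 4 for visceral minus subcutaneous, 36 for perirenal minus subcutaneous, 13 for perirenal minus epicardial, 4 for visceral minus epicardial and 10 for epicardial minus subcutaneous fat in testosterone sheep, 18 between testosterone sheep and 1 on summed counts. All 63 members called for perirenal minus subcutaneous fat in control sheep were among the 68 that DESeq2 called. The full DESeq2 fit, made on all genes with a count, moved the median of all genes by at most 0.151 and that of the members by at most 0.036. Its size factors alone, used in edgeR, moved them by at most 0.042 and 0.041. Without the filter 3 members passed for perirenal minus visceral and 5 for epicardial minus subcutaneous fat in control sheep, and 2 for epicardial minus subcutaneous fat in testosterone sheep.

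With no block for the sheep, so without the pairing, 0 passed for perirenal minus visceral, 5 for visceral minus subcutaneous, 4 for epicardial minus subcutaneous and 58 for perirenal minus subcutaneous fat in control sheep. In testosterone sheep 2 passed for perirenal minus subcutaneous and 0 in the other comparisons. Library sizes set to the members' total gave 15 passing for perirenal minus subcutaneous and 15 for perirenal minus epicardial fat in control sheep, as the scaling removes what members share. With that scaling 41 and 42 members, in the same order, changed sign from the main fit.

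Leaving out 1 sheep at a time, the control counts ran from 46 to 56 for perirenal minus subcutaneous, 0 to 1 for perirenal minus visceral, 17 to 49 for perirenal minus epicardial, 2 to 13 for visceral minus subcutaneous, 1 to 4 for visceral minus epicardial and 0 to 11 for epicardial minus subcutaneous fat, and 1 to 3 between sheep. In testosterone sheep they ran from 0 to 7, 0 to 1, 0 to 8, 0 to 0, 0 to 2 and 0 to 2 in the same order, and 0 to 10 between sheep. Without the libraries that stood apart, 3 passed for perirenal minus visceral and 28 for perirenal minus epicardial fat in control sheep, and 4, 21, 2 and 2 for perirenal minus visceral, perirenal minus epicardial, visceral minus epicardial and epicardial minus subcutaneous fat in testosterone sheep, and 16 between testosterone sheep. The cause was not tested. Within a depot, testosterone effects stayed at 0 members under each alternative run, and the summed counts were not run without the libraries that stood apart. RPL3L is the 1 member with no count in some library, so depth limits it most.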
